A study of Mus musculus with 6 samples.

Results

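Arterial calcification is held in check by proteins that bind or block mineral, by pyrophosphate, and by the supply of phosphate to the cells of the wall. The genes described here encode 10 regulators of that balance and were taken by symbol from the table of read counts, which held 55401 gene IDs. They are the mineral-binding or bone-regulating secreted proteins Mgp, Spp1 and Tnfrsf11b, the pyrophosphate genes Enpp1, Alpl and Abcc6, the sodium-dependent phosphate importers Slc20a1 and Slc20a2, and the transcription factors Runx2 and Sox9. All 10 symbols matched 1 gene ID each, and all 10 passed the filter on low counts.

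RNA sequencing of aorta compared mice lacking both interleukin-16, a cytokine and ligand of CD4, and apolipoprotein E, a ligand for lipoprotein clearance (IL16-/-ApoE-/-, 3 libraries), with mice lacking apolipoprotein E alone (ApoE-/-, 3 libraries). From 8 weeks of age all mice ate a high-fat diet, which lasted 24 weeks, and mice without apolipoprotein E are a standard model of atherosclerosis. The question was what interleukin-16 deficiency changes in aortic expression under that diet. Strain background, sex, the number of animals behind a library and the deleted part of each gene were not stated in what was available, and p-values therefore describe the spread between these libraries, which may be technical. In bulk tissue, fewer cells of a type and less RNA per cell cannot be told apart.

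Libraries held 42861980 to 47208779 counts in IL16-/-ApoE-/- and 65730552 to 85568269 in ApoE-/-, and levels below are CPM, the count scaled to a common library total after TMM adjustment. Il16, the targeted gene, was at 7.93, 12.1 and 12.2 CPM in IL16-/-ApoE-/- 1, 2 and 3, against 28.3, 28.7 and 15.1 CPM in ApoE-/- 1, 2 and 3. Every IL16-/-ApoE-/- library lay below every ApoE-/- library, but reads of Il16 remained and its log2 fold change of -1.16 (SE 0.32) did not pass (adjusted p = 0.163, edgeR; 0.0226 in DESeq2). Apoe, targeted in all mice, was at 137 to 183 CPM in IL16-/-ApoE-/- and at 20.9 to 45.0 CPM in ApoE-/- (log2 fold change 2.34, SE 0.33, adjusted p = 0.0369, edgeR), a call lost without ApoE-/- 2, ApoE-/- 3 or any 1 IL16-/-ApoE-/- library. ApoE-/- libraries were unlike one another, with a biological coefficient of variation of 0.590, against 0.209 among the IL16-/-ApoE-/- libraries. ApoE-/- 1 had 474 CPM of Xist, the RNA of the inactive X chromosome, and the other 5 libraries had 0.497 to 6.21 CPM. Ddx3y, a gene of the Y chromosome, was at 0.143, 134 and 136 CPM in ApoE-/- 1, 2 and 3. In IL16-/-ApoE-/- it was at 70.1 to 75.6 CPM, below ApoE-/- 2 and 3. By both genes ApoE-/- 1 alone has a female pattern. Smooth muscle markers were present in every library, with 8854 to 10041 CPM summed over 8 genes in IL16-/-ApoE-/- and 4445, 19773 and 28545 CPM in ApoE-/- 1, 2 and 3.

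Calcifying vessels are known to carry a bone-like program. Smooth muscle cells can take on features of osteoblasts or chondrocytes under Runx2 and Sox9, while matrix Gla protein and pyrophosphate oppose crystal growth. In atherosclerosis, macrophages of the plaque are known to secrete osteopontin, the product of Spp1.

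Mgp, the vitamin K-dependent matrix Gla protein that smooth muscle cells and chondrocytes secrete to keep mineral from forming, was higher in IL16-/-ApoE-/- aortas (ENSMUSG00000030218, GRCm38 chromosome 6, 136872435 to 136875823, minus strand). It was at 1936, 2026 and 2061 CPM in IL16-/-ApoE-/- 1, 2 and 3, against 456, 534 and 634 CPM in ApoE-/- 1, 2 and 3. Every IL16-/-ApoE-/- library lay above every ApoE-/- library. Mgp averaged 2008 ± 64.7 CPM in IL16-/-ApoE-/- and 541 ± 88.9 CPM in ApoE-/- (SD, n = 3 each), a 3.71-fold difference. The log2 fold change was 1.89 (SE 0.27, adjusted p = 0.0364, edgeR's quasi-likelihood test with Benjamini-Hochberg adjustment over 19833 genes). Of the 10 regulators, 1 rose and 0 fell, where 1.14% of all tested genes rose and 0.0605% fell. At an unadjusted p under 0.05 in the same test, still 0 of the 10 were lower, where 7.03% of all genes were. DESeq2, limma-voom and limma-voom with sample weights also called 1 of the 10 higher (6.25%, 1.95% and 9.39% of all genes) and 0 lower (2.34%, 0.116% and 7.5% of all genes).

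The call for Mgp was lost without ApoE-/- 2 (adjusted p = 0.104) and without any 1 of IL16-/-ApoE-/- 1, 2 or 3 (adjusted p = 0.229, 0.215 and 0.229), where 0 genes of the whole table passed edgeR and, at an unadjusted p under 0.05, 1254 to 1319 were higher and 630 to 723 lower. It was kept without ApoE-/- 3 (adjusted p = 0.0434), where 0.802% of all genes rose and 0.0935% fell. Its log2 fold change stayed between 1.78 and 2.02 over 15 alternative settings, with adjusted p from 6.403e-21 (DESeq2) to 0.229.

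Kidney tubule markers separated the groups in the same way as Mgp. All 12 of 12 were higher in each IL16-/-ApoE-/- library than in each ApoE-/- library, where 14.9% of all tested genes were. Their summed level was 541 to 602 CPM in IL16-/-ApoE-/- and 1.52 to 2.90 CPM in ApoE-/-. Kap, an androgen-regulated gene of the proximal tubule, was at 349 to 389 CPM in IL16-/-ApoE-/- and had no count in ApoE-/-, as had Umod, the uromodulin gene, and 8 of the 12 in all. These 8 could pass the filter on low counts only through IL16-/-ApoE-/-, so their separation as higher was fixed in advance. The count of 12 thus describes the markers and is not comparable to the 14.9%. The list was also chosen with earlier results of these data known. Endothelial markers separated the groups too, all 6 of 6 as higher, beside the same 14.9% of all tested genes. Their sums were 1144 to 1190 CPM in IL16-/-ApoE-/- and 562 to 990 CPM in ApoE-/-. By edgeR 0 of the 6 passed, where 1.14% of all genes rose. An unadjusted p under 0.05 in that test was found for 2 of the 6, and for 15.9% of all genes. Within ApoE-/-, Mgp rose from ApoE-/- 1 to ApoE-/- 3 while the endothelial sum fell (990, 677 and 562 CPM). The kidney tubule sum was 2.55, 2.90 and 1.52 CPM in ApoE-/- 1, 2 and 3. The smooth muscle sum rose in the same order as Mgp there, but it did not separate the groups. The part of these cell types in the Mgp result was not tested. Over the 6 libraries and 13724 other genes of at least 1 CPM on average, the patterns most like that of Mgp by Pearson correlation of log2 CPM were those of the RNA host gene Snhg8, the kidney phosphate transporter gene Slc17a1 and the fat hormone gene Lep (r = 0.997 each), values that rest on the gap between the groups.

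**Figure D1:**
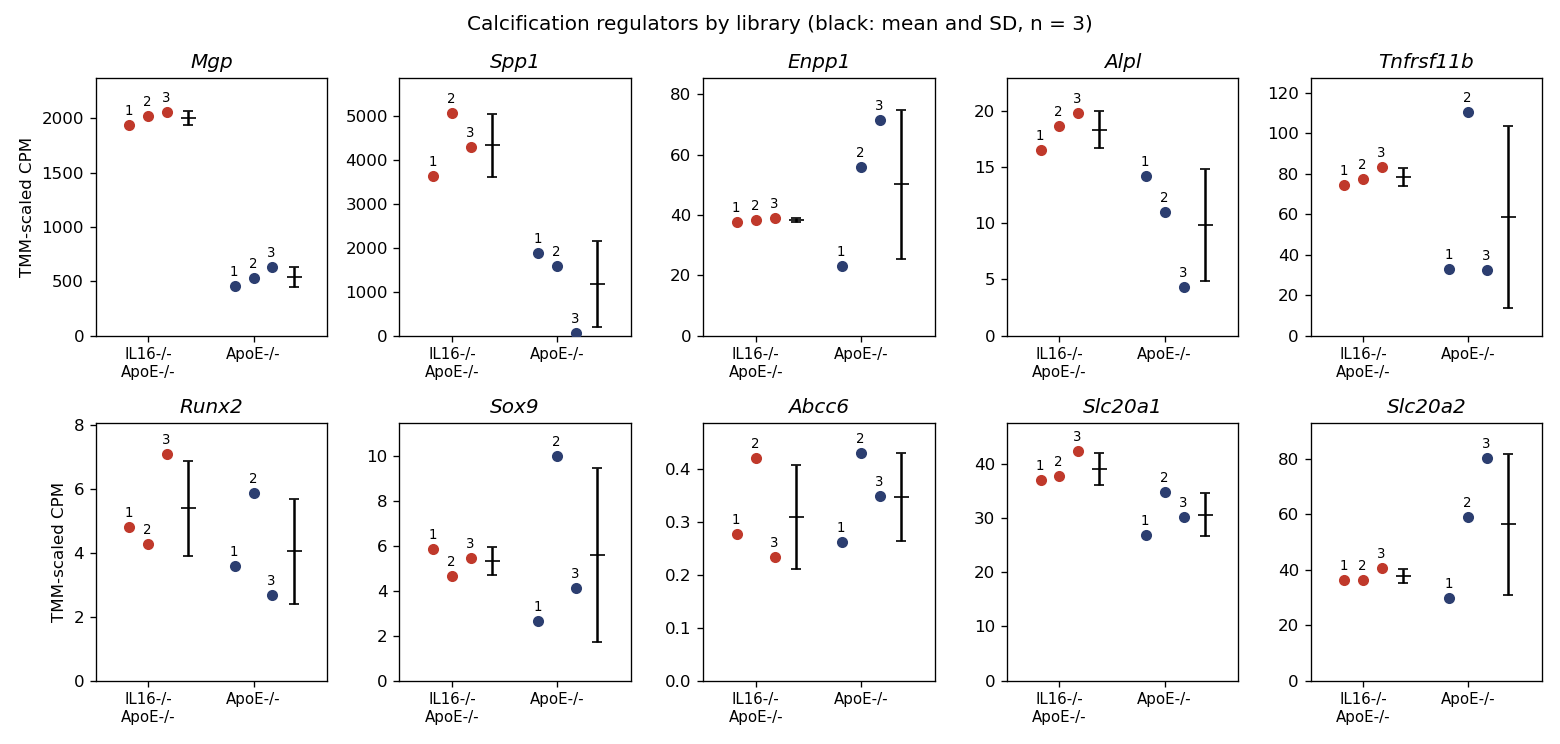
TMM-scaled CPM of each of the 10 regulators in the 3 IL16-/-ApoE-/- libraries (red) and the 3 ApoE-/- libraries (blue), numbered by replicate, with the group mean and SD in black. The groups of Mgp lie far apart (1936 to 2061 against 456 to 634 CPM), while for Enpp1, Slc20a2, Tnfrsf11b and Sox9 the ApoE-/- libraries spread to both sides of the IL16-/-ApoE-/- libraries.

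Spp1 encodes osteopontin, an acidic phosphoprotein that binds mineral and cell integrins (ENSMUSG00000029304, chromosome 5, 104435118 to 104441050, plus strand). It was at 3642, 5070 and 4287 CPM in IL16-/-ApoE-/- 1, 2 and 3, against 1877, 1582 and 70.8 CPM in ApoE-/- 1, 2 and 3. The groups did not overlap, and ApoE-/- 3 lay far below every other library. Within ApoE-/- the highest library was 26.5-fold above the lowest, and within IL16-/-ApoE-/- 1.39-fold. The log2 fold change was 1.88, close to that of Mgp, but its SE was 1.01 and it did not pass (adjusted p = 0.404, edgeR). Leaving out ApoE-/- 3 gave 1.32 (adjusted p = 0.160) and leaving out ApoE-/- 1 gave 2.39 (adjusted p = 0.190).

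Macrophage markers ordered the ApoE-/- libraries as Spp1 did. Their 8 genes summed to 6598, 9002 and 7094 CPM in IL16-/-ApoE-/- 1, 2 and 3 and to 6255, 3720 and 470 CPM in ApoE-/- 1, 2 and 3, and IL16-/-ApoE-/- 2 was highest for both Spp1 and the sum. Of the 8, 3 separated the groups as higher in IL16-/-ApoE-/-, where 14.9% of all tested genes did. Among the 3 were the lysosomal Cd68 (264 to 338 CPM in IL16-/-ApoE-/-, 14.5 to 158 CPM in ApoE-/-) and the foam cell gene Gpnmb (2110 to 2637 CPM in IL16-/-ApoE-/-, 92.8 to 1516 CPM in ApoE-/-). The other 5 overlapped. For Csf1r (275 against 136 to 183 CPM), Adgre1, C1qa and Cd14, ApoE-/- 1 lay above every IL16-/-ApoE-/- library. In none of the 6 libraries was a gene of that list at 0. What macrophage content contributes to the Spp1 values was not tested. Serpina3n, Cdk18 and B4galt1 had the patterns most like Spp1 over the 6 libraries (r = 0.999 each), and all 3 were lowest in ApoE-/- 3.

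Promoter sequence of Spp1 is shown because Runx2, another of the 10 regulators, is known to bind the letters AACCACA in osteoblast promoters. Of the 10 regulators, 5 had an entry among the RefSeq promoters of GRCm38.p6 (Spp1, Enpp1, Alpl, Runx2 and Slc20a1, with 8 start sites in all). AACCACA, on either strand as AACCACA or TGTGGTT, was found in the 250 bases before 3 of those 8 starts, and in 4.4% of all 32851 windows of that length. A match describes letters and not binding. The 250 bases of Spp1 (chr5:104434861-104435110, plus strand) have the motif in capitals, starting 129 bases before the start. Stretches of 27 bases around the motif, also in capitals, are given for Slc20a1 (chr2:129198686-129198712, plus strand, 77 bases before the start) and for Runx2 itself (chr17:44814692-44814718, minus strand, 81 bases before the start). Distances are from the RefSeq starts. The Runx2 gene span given below begins at 44814797 on the minus strand, so the Runx2 stretch lies inside that span.
Spp1: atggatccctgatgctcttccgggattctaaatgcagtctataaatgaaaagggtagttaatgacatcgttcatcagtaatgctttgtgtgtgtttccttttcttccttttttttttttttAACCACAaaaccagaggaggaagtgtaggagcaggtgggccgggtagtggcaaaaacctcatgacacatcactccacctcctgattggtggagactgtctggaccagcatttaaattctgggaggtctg
Slc20a1: ccgaccagccTGTGGTTgcgtcacatc
Runx2: tgaggtcacaAACCACAtgattctgtc

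Tnfrsf11b encodes osteoprotegerin, the soluble decoy receptor that binds RANK ligand and so limits osteoclast formation (ENSMUSG00000063727, chromosome 15, 54250619 to 54278484, minus strand). It was at 74.4, 77.4 and 83.4 CPM in IL16-/-ApoE-/- 1, 2 and 3, against 33.2, 111 and 32.6 CPM in ApoE-/- 1, 2 and 3. ApoE-/- 2 lay above, and the other two ApoE-/- libraries below, all IL16-/-ApoE-/- libraries. The log2 fold change of 0.41 (SE 0.49) did not pass (adjusted p = 0.695, edgeR). Without ApoE-/- 2 it was 1.26 (SE 0.14, adjusted p = 0.0462), in a fit that called 0.499% of genes higher and 0.0346% lower and in which Tnfrsf11b, not Mgp, was the 1 regulator past the threshold.

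Pyrophosphate in the vessel wall is made outside the cell by the ectoenzyme Enpp1 and hydrolysed to phosphate by tissue-nonspecific alkaline phosphatase, the product of Alpl. Enpp1 (ENSMUSG00000037370, chromosome 10, 24637914 to 24712159, minus strand) had levels of 37.6, 38.4 and 39.0 CPM in IL16-/-ApoE-/- 1, 2 and 3, against 23.2, 56.1 and 71.5 CPM in ApoE-/- 1, 2 and 3. The IL16-/-ApoE-/- libraries thus sat within a narrow band between ApoE-/- 1 and the other ApoE-/- libraries. Its log2 fold change of -0.39 (SE 0.38) did not pass (adjusted p = 0.634, edgeR).

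Alpl (ENSMUSG00000028766, chromosome 4, 137741733 to 137796384, minus strand) had levels of 16.5, 18.7 and 19.8 CPM in IL16-/-ApoE-/- 1, 2 and 3, against 14.2, 11.0 and 4.35 CPM in ApoE-/- 1, 2 and 3. The groups did not overlap, with ApoE-/- 3 again lowest, but the log2 fold change of 0.90 (SE 0.42) did not pass (adjusted p = 0.353, edgeR). Genes most like Alpl over the 6 libraries were the bile acid receptor gene Nr1h4, the interleukin-17 receptor gene Il17ra and the syndecan gene Sdc1 (r = 0.999, 0.997 and 0.997). The ratio of Alpl to Enpp1, both in CPM, was 0.439, 0.486 and 0.508 in IL16-/-ApoE-/- 1, 2 and 3, and 0.611, 0.196 and 0.0608 in ApoE-/- 1, 2 and 3. No direction separates the groups in that ratio, since ApoE-/- 1 had the highest and ApoE-/- 3 the lowest of the 6 values.

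Abcc6, the transporter whose loss causes the mineralizing disease pseudoxanthoma elasticum and which acts mainly in liver, was barely detected (ENSMUSG00000030834, chromosome 7, 45967555 to 46030302, minus strand). It had 12, 20 and 10 counts in IL16-/-ApoE-/- 1, 2 and 3 and 22, 30 and 28 counts in ApoE-/- 1, 2 and 3. These counts correspond to 0.233 to 0.420 CPM in IL16-/-ApoE-/- and 0.263 to 0.430 CPM in ApoE-/-, so no difference was detectable at this depth (log2 fold change -0.16, SE 0.59, adjusted p = 0.911, edgeR).

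Phosphate enters vascular cells through the type III sodium-phosphate cotransporters Pit-1 and Pit-2, encoded by Slc20a1 and Slc20a2. Slc20a1 (ENSMUSG00000027397, chromosome 2, 129198764 to 129211616, plus strand) was at 36.9, 37.7 and 42.3 CPM in IL16-/-ApoE-/- 1, 2 and 3, against 26.9, 34.8 and 30.1 CPM in ApoE-/- 1, 2 and 3. The groups did not overlap, and the log2 fold change of 0.35 (SE 0.15) did not pass (adjusted p = 0.335, edgeR). Slc20a2 (ENSMUSG00000037656, chromosome 8, 22476788 to 22569612, plus strand) was at 36.2, 36.4 and 40.5 CPM in IL16-/-ApoE-/- 1, 2 and 3, against 29.8, 58.8 and 80.4 CPM in ApoE-/- 1, 2 and 3. Here the groups overlapped through ApoE-/- 1, and the log2 fold change of -0.58 (SE 0.34) did not pass either (adjusted p = 0.442, edgeR). The ratio of Slc20a1 to Slc20a2, both in CPM, was 1.02 to 1.04 in IL16-/-ApoE-/- and 0.902, 0.592 and 0.374 in ApoE-/- 1, 2 and 3, and it was not tested.

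Enpp1 and Slc20a2 ordered the 6 libraries much alike (r = 0.96 of log2 CPM), with ApoE-/- 1 lowest and ApoE-/- 3 highest. Smooth muscle markers had the same extremes. Myh11, the smooth muscle myosin heavy chain, was at 2031 to 2345 CPM in IL16-/-ApoE-/- and at 1158, 6355 and 8497 CPM in ApoE-/- 1, 2 and 3. Between the groups 8 of 8 smooth muscle markers overlapped, where 14.9% of all tested genes separated as higher and 11.5% as lower. None of the 8 was at 0. Acta2, smooth muscle actin, was at 3823 to 4305 CPM in IL16-/-ApoE-/- and at 1798, 7285 and 11552 CPM in ApoE-/- 1, 2 and 3. Lhfp, Wls and Mettl24 were the genes most like Enpp1 (r = 0.998, 0.997 and 0.997). Without ApoE-/- 1, the library of female pattern, Enpp1 (log2 fold change -0.74, SE 0.13, adjusted p = 0.0123) and Slc20a2 (-0.89, SE 0.16, adjusted p = 0.0122) passed as lower and Mgp (1.78, adjusted p = 0.00214) as higher. That fit called 12.8% of all genes lower and 13.1% higher, so 2 lower and 1 higher of 10 is near its background. In the same fit 7 of 8 smooth muscle markers were lower, Myh11 by a log2 fold change of -1.73, and 6 of 6 endothelial, 6 of 6 adipocyte and 11 of 12 kidney tubule markers were higher. Of those 12, 8 had no count in ApoE-/-. Passing in either direction were 0 of 8 macrophage and 0 of 6 fibroblast markers, while 1 of 6 liver markers passed as higher. Adipocyte markers summed to 4558, 4709 and 4371 CPM in IL16-/-ApoE-/- 1, 2 and 3. In ApoE-/- 1, 2 and 3 they summed to 4570, 597 and 580 CPM. The sum of ApoE-/- 1 lay within the IL16-/-ApoE-/- range, but its single markers did not. ApoE-/- 1 was above every IL16-/-ApoE-/- library for Adipoq (541 against 324 to 380 CPM), Plin1, Cidec and Retn. For Fabp4 (3002 against 3402 to 3635 CPM) and Lep it was below every IL16-/-ApoE-/- library. The part of these cell types in the Enpp1, Slc20a2 and Mgp values was not tested.

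**Figure D2:**
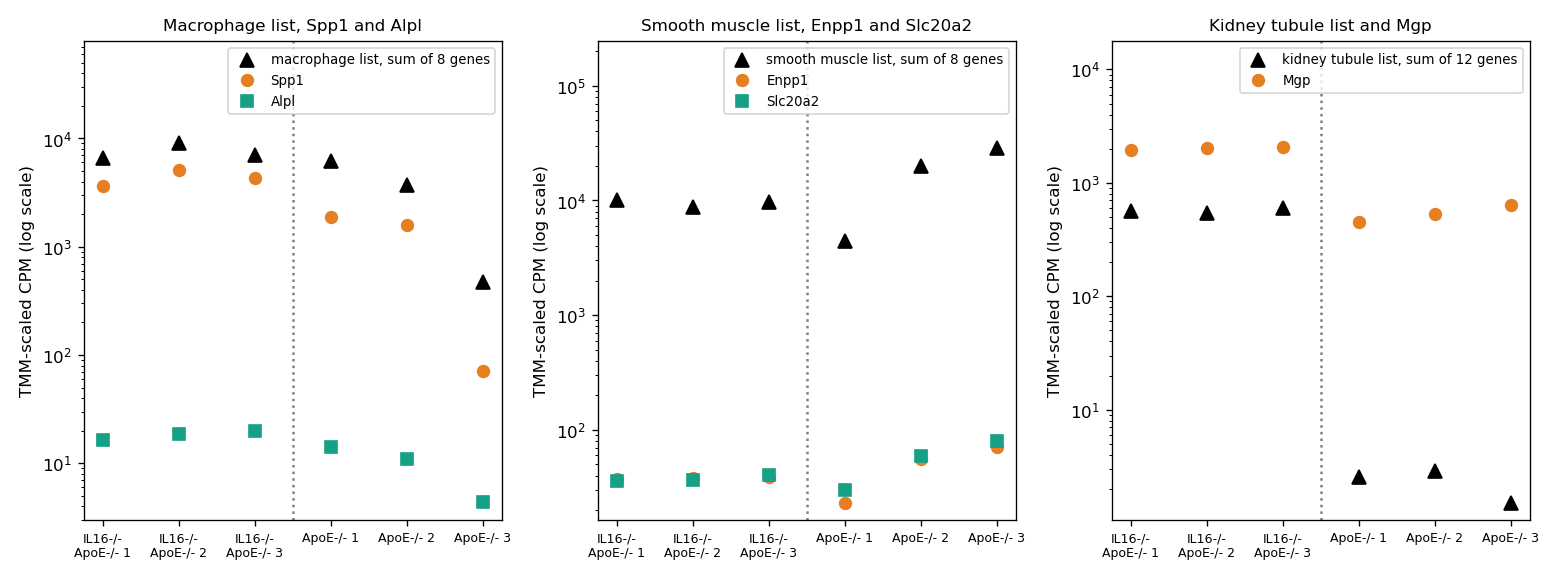
Summed TMM-scaled CPM of 3 marker lists (triangles) with regulators beside them, by library on a log scale, IL16-/-ApoE-/- libraries left and ApoE-/- libraries right of the dotted line. Spp1, Alpl and the macrophage sum are all lowest in ApoE-/- 3 (70.8, 4.35 and 470 CPM). Enpp1, Slc20a2 and the smooth muscle sum are all lowest in ApoE-/- 1. Mgp and the kidney tubule sum are both higher in all 3 IL16-/-ApoE-/- libraries.

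Runx2, the transcription factor required for osteoblast formation, was low in all libraries (ENSMUSG00000039153, chromosome 17, 44495987 to 44814797, minus strand). It was at 4.82, 4.26 and 7.07 CPM in IL16-/-ApoE-/- 1, 2 and 3, against 3.58, 5.87 and 2.68 CPM in ApoE-/- 1, 2 and 3. The groups overlapped, and the log2 fold change of 0.41 (SE 0.39) did not pass (adjusted p = 0.620, edgeR). Runx2 overlaps Supt3 on the opposite strand, which had 271 to 500 counts in IL16-/-ApoE-/- and 404 to 899 in ApoE-/-, more than Runx2 in 4 of the 6 libraries. The libraries mark strand, but whether the counting used it was not stated, so Runx2 values are uncertain, as are those of Slc20a1 and Slc20a2, which also overlap genes on the other strand.

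Sox9, the transcription factor that specifies chondrocytes, had much the same mean in both groups (ENSMUSG00000000567, chromosome 11, 112782224 to 112787760, plus strand). It was at 5.85, 4.64 and 5.45 CPM in IL16-/-ApoE-/- 1, 2 and 3, against 2.67, 9.996 and 4.11 CPM in ApoE-/- 1, 2 and 3. ApoE-/- 2 alone lay above the IL16-/-ApoE-/- libraries, as for Tnfrsf11b, and the log2 fold change was -0.07 (SE 0.50, adjusted p = 0.954, edgeR). Without ApoE-/- 2 it had the opposite sign, 0.65 (SE 0.32, adjusted p = 0.473).

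Across the 10 regulators, 4 had all IL16-/-ApoE-/- libraries above all ApoE-/- libraries (Mgp, Spp1, Alpl and Slc20a1), where 14.9% of all tested genes did, and 0 had all below, where 11.5% did. Fold changes were positive for 6 of 10, against 46.4% of all tested genes, and the median log2 fold change was 0.38, against -0.05 over all genes. Since the regulators were picked by name and are few, these counts describe them and support nothing further. For 9 of the 10 the spread was wider in ApoE-/-, with a coefficient of variation of 0.131 (Slc20a1) to 0.823 (Spp1) there and 0.0183 (Enpp1) to 0.277 (Runx2) in IL16-/-ApoE-/-. This is not particular to the regulators, since over all tested genes the biological coefficient of variation was 0.590 in ApoE-/- and 0.209 in IL16-/-ApoE-/-. The exception among the 10 was Abcc6, with a coefficient of variation of 0.316 in IL16-/-ApoE-/- and 0.242 in ApoE-/-.

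**Figure D3:**
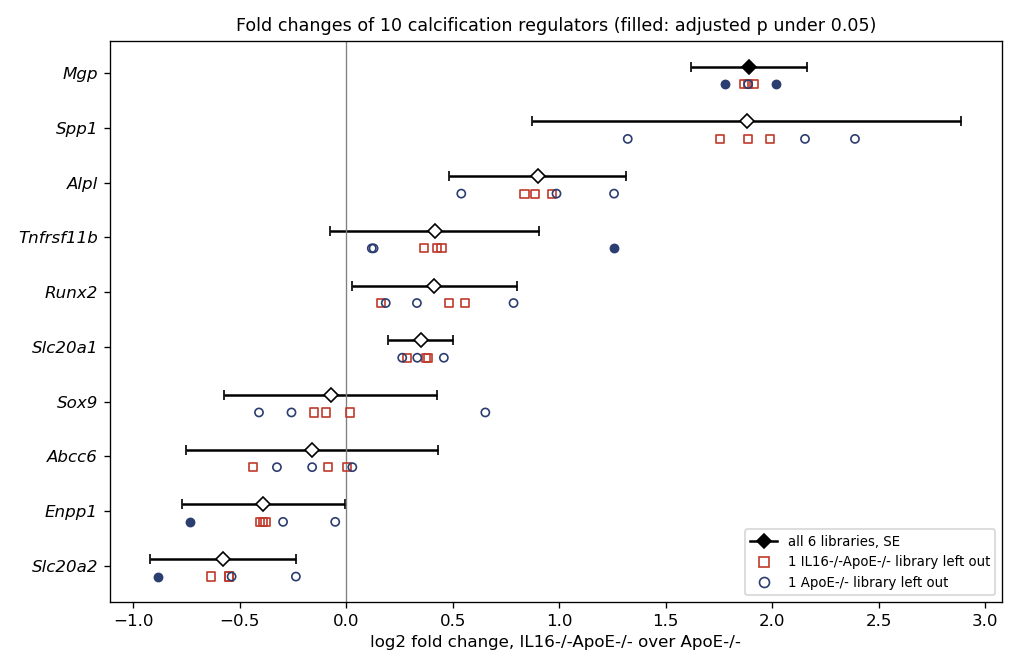
Log2 fold change of each regulator (IL16-/-ApoE-/- over ApoE-/-) with all 6 libraries (diamonds, with SE) and with 1 library left out (squares and circles), filled where the adjusted p is under 0.05. Mgp stays between 1.78 and 2.02 whichever library is left out, whereas Tnfrsf11b runs from 0.12 to 1.26 and Sox9 changes sign.

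Levels of different genes can be set side by side only per length, and CPM per kilobase of transcript is used for that. Mgp stood first and Spp1 second in both groups, with 3254 ± 105 and 3023 ± 499 CPM per kilobase in IL16-/-ApoE-/- and 877 ± 144 and 821 ± 676 in ApoE-/- (SD, n = 3 each). In either group these levels of Mgp and Spp1 lay within their spread of each other. Tnfrsf11b came next, at 27.8 ± 1.62 in IL16-/-ApoE-/- and 20.9 ± 15.9 in ApoE-/-. Slc20a1, Slc20a2, Enpp1 and Alpl followed between 7.26 and 11.9 CPM per kilobase in IL16-/-ApoE-/- and between 3.90 and 15.8 in ApoE-/-. In ApoE-/-, Slc20a2, Enpp1 and Slc20a1 lay within their spread of each other, while every library of Alpl (1.72 to 5.62) was below every library of Slc20a1 (8.23 to 10.7) and of Slc20a2 (8.36 to 22.5). Runx2 (2.32 in IL16-/-ApoE-/-, 1.75 in ApoE-/-), Sox9 (1.28 and 1.35) and Abcc6 (0.0623 and 0.0697) were last in that order in both groups. By the same measure Mgp ranked 24th to 30th among all genes in IL16-/-ApoE-/- libraries and 43rd to 67th in ApoE-/- libraries.

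Other genes of the pathway were examined as 5 lists, and 0 of their 51 tested members passed over all genes in either direction by edgeR, with 4 at an unadjusted p under 0.05, where 15.9% of all genes were. DESeq2 called 2 of the 51 higher (Chad and Kl, where 6.25% of all genes rose) and 1 lower (Phex, where 2.34% fell). Limma-voom called 1 higher (Kl, where 1.95% rose) and 0 lower (0.116% fell), and with sample weights it called 6 higher and 4 lower, where 9.39% of all genes rose and 7.5% fell. Without ApoE-/- 1, edgeR called 0 higher and 2 lower among the osteoblast genes, 1 and 2 among the chondrocyte genes, 3 and 1 among the osteoclast genes, 2 and 3 among the phosphate genes and 0 and 2 in the vitamin K list, beside the 13.1% and 12.8% of all genes. Osteoblast and bone matrix genes had 9 of 12 tested and a median log2 fold change of -0.30. The bone-specific Bglap, Bglap2 and Dmp1 were too low to test. Phex, an endopeptidase of phosphate homeostasis, came first by p, at 3.40 to 4.19 CPM in IL16-/-ApoE-/- and 5.24 to 11.3 CPM in ApoE-/- (log2 fold change -1.19, SE 0.34, adjusted p = 0.174 in edgeR and 0.0187 in DESeq2). Ibsp, encoding bone sialoprotein, was at 3.94 to 7.73 CPM in IL16-/-ApoE-/- and 0.286 to 5.31 CPM in ApoE-/- (adjusted p = 0.480).

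Chondrocyte genes had 12 of 12 tested and a median log2 fold change of 0.19. Chad, the cartilage matrix protein chondroadherin, was at 4.10 to 6.47 CPM in IL16-/-ApoE-/- and 1.43 to 2.26 CPM in ApoE-/- (log2 fold change 1.52, SE 0.34, adjusted p = 0.107 in edgeR and 2.485e-04 in DESeq2). Comp, cartilage oligomeric matrix protein, was at 64.0 to 77.4 CPM in IL16-/-ApoE-/- and 51.0 to 58.4 CPM in ApoE-/- (0.36, SE 0.14, adjusted p = 0.297). For both the groups did not overlap. Hapln1, which links hyaluronan to proteoglycans, was at 2.37 to 3.82 CPM in IL16-/-ApoE-/- and 3.04 to 9.99 CPM in ApoE-/- (-1.06, SE 0.47, adjusted p = 0.338).

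Genes of the RANK ligand system and of osteoclasts had 9 of 10 tested and a median log2 fold change of 0.82, with 4 separating the groups as higher in IL16-/-ApoE-/- and 0 as lower, where 14.9% and 11.5% of all tested genes did. Ctsk, the bone-resorbing protease cathepsin K, was at 108 to 116 CPM in IL16-/-ApoE-/- and 21.7 to 85.4 CPM in ApoE-/- (log2 fold change 1.04, SE 0.45, adjusted p = 0.332). Atp6v0d2, a proton pump subunit of osteoclasts and macrophages, was at 151 to 169 CPM in IL16-/-ApoE-/- and 13.9 to 110 CPM in ApoE-/- (1.23, SE 0.66, adjusted p = 0.403). Nfatc1, the osteoclast transcription factor, was at 36.5 to 38.5 CPM in IL16-/-ApoE-/- and 25.2 to 34.6 CPM in ApoE-/- (adjusted p = 0.419). In all 3, ApoE-/- 3 was lowest, as it was for the macrophage sum.

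Genes of pyrophosphate, adenosine and phosphate handling had 11 of 12 listed names matched and tested, with a median log2 fold change of -0.38. Kl, encoding klotho, the phosphate-regulating coreceptor known from kidney tubules, was at 5.47 to 6.63 CPM in IL16-/-ApoE-/- and 0 to 0.224 CPM in ApoE-/- (adjusted p = 0.0738 in edgeR, 8.269e-09 in DESeq2 and 0.0384 in limma-voom), beside the kidney tubule markers given above. Xpr1, the phosphate exporter, was at 72.3 to 78.4 CPM in IL16-/-ApoE-/- and 59.9 to 196 CPM in ApoE-/- (log2 fold change -0.98, SE 0.43, adjusted p = 0.332). Nt5e, whose adenosine restrains Alpl in arteries, was at 14.1 to 18.8 CPM in IL16-/-ApoE-/- and 7.62 to 13.6 CPM in ApoE-/- (0.61, SE 0.27, adjusted p = 0.332).

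The list around the vitamin K cycle, Gla proteins, circulating inhibitors and the elastic matrix also held Car2, which belongs to none of these. It had 10 of 10 tested and a median log2 fold change of -0.09. In 10 of 10 the groups overlapped, where 14.9% of all tested genes separated as higher and 11.5% as lower. Eln, encoding elastin, was at 1785 to 2127 CPM in IL16-/-ApoE-/- and 1601 to 4113 CPM in ApoE-/- (log2 fold change -0.62, SE 0.41, adjusted p = 0.485). Car2, the carbonic anhydrase of osteoclasts and kidney, was at 12.4 to 15.2 CPM in IL16-/-ApoE-/- and 1.37 to 13.04 CPM in ApoE-/- (adjusted p = 0.531). Fbn1, encoding fibrillin-1, was at 271 to 344 CPM in IL16-/-ApoE-/- and 288 to 550 CPM in ApoE-/- (adjusted p = 0.684).

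**Figure D4:**
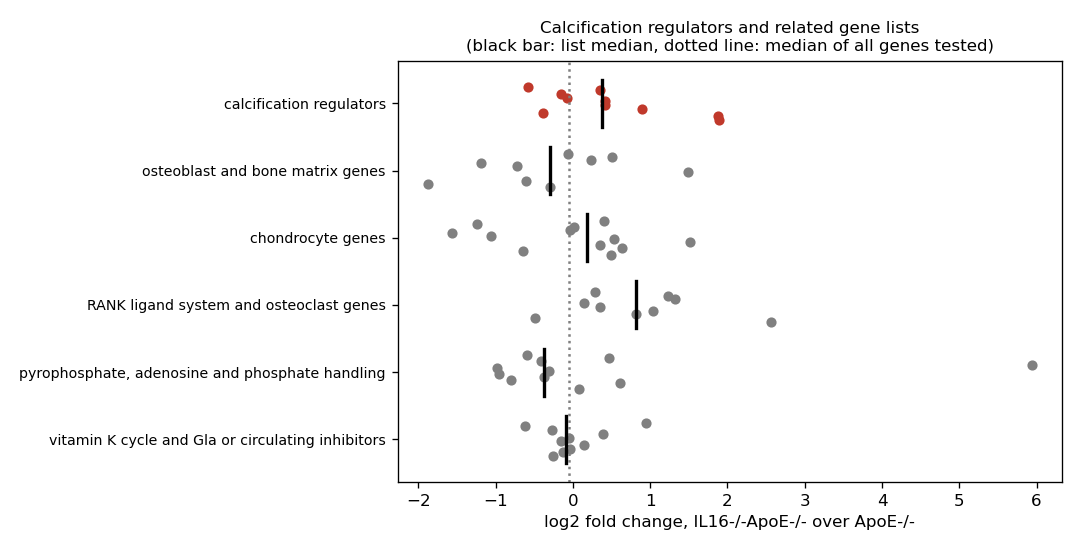
Log2 fold change (IL16-/-ApoE-/- over ApoE-/-) of every tested gene of the calcification regulators (red) and of 5 related lists (grey), with each list's median as a black bar and the median of all tested genes (-0.05) as a dotted line. List medians run from -0.38 to 0.82, and the point far to the right is Kl, nearly absent from ApoE-/- libraries.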

How the data were processed

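Polyadenylated RNA of 6 aorta samples was sequenced as strand-marking libraries, per the labels' protocols. The authors deposited raw read counts per Ensembl gene, whole numbers without normalization. Per the submitters' processing notes the tools were StringTie, HISAT2 and cutadapt, with no versions. Genome build, annotation, counter and use of strand: not given in the sources used here. Symbols and positions came from GENCODE M21 (GRCm38), which matched 55141 of 55401 IDs. The other 260 held at most 0.0114% of a library.

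Genes passing edgeR's filterByExpr (minimum count 10, minimum total 15) numbered 19833. TMM scaling and the quasi-likelihood test (two-sided, no covariate, threshold 0.05) were applied to all of them, and the SE is the log2 fold change divided by the square root of F. Correlations used log2 CPM with a prior count of 2. CPM per kilobase used the median length of basic transcripts. The 15 alternatives were other scalings, filters and tools, a replicate block and leaving out each library. Named were all 10 regulators, Il16, Apoe, Xist, Ddx3y, up to 3 genes by p of each related list, up to 2 of each marker list, and the 3 genes most like Mgp, Spp1, Alpl and Enpp1. Further adipocyte and macrophage markers were named where ApoE-/- 1 lay outside the IL16-/-ApoE-/- range. A gene of the related lists that this rule names is not reported here. The regulators, lists and tests were chosen with earlier results of these data known. R 4.3.3, edgeR 4.0.16, limma 3.58.1, DESeq2 1.42.0, Python 3.11.15 and matplotlib 3.10.9 were used.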

Additional observations from a re-analysis of the deposited data

How the results depend on the processing

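Counts of genes passing as higher and lower (226 and 12) were 1235 and 462 in DESeq2, 386 and 23 in limma-voom, 1863 and 1488 in limma-voom with sample weights, and 0 to 2651 and 0 to 2580 with 1 library left out. Among the 10 regulators, 0 or 1 passed as higher and 0 to 2 as lower with 1 library left out. Same-numbered libraries did not deviate together (r = -0.04, -0.0271 and -0.0095). No pairing was thus seen, but the wide spread among ApoE-/- libraries could hide one. With the replicate block, 0 genes passed in either direction, 0 regulators among them, with 1643 and 684 at an unadjusted p under 0.05. The other filters and scalings kept the counts within 1.5 times and Mgp past the threshold. Signs turned for Tnfrsf11b in limma-voom with sample weights (-0.0107), for Sox9 in limma-voom (0.18), with the block (0.15), without IL16-/-ApoE-/- 2 (0.02) and without ApoE-/- 2 (0.65; -0.41 to 0.65 with 1 library left out), for Abcc6 without IL16-/-ApoE-/- 3 (0.0048) and without ApoE-/- 2 (0.0281; -0.44 to 0.03), for Fbn1 without ApoE-/- 2 (0.0993; -0.44 to 0.10), and for Sost in limma-voom (0.35), with the block (0.10) and without ApoE-/- 3 (0.24; -1.28 to 0.24). None of the turned values passed, and the cause was not tested. Of the 149 alternative values for the regulators, 134 kept direction and side of the threshold. Only Mgp was called in the main fit, so for the other regulators keeping the side means staying uncalled. Mgp itself lost its call in 5 of its 15 alternatives. Depth limits Abcc6, with 10 to 30 counts a library.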

Other observations

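Values of 3 further genes around osteoprotegerin and bone formation were noted after they had been seen. Tnfsf11, encoding RANK ligand, which osteoprotegerin binds, had 34, 33 and 30 counts in IL16-/-ApoE-/- 1, 2 and 3, against 30, 0 and 0 counts in ApoE-/- 1, 2 and 3, and a count of 0 allows up to 0.0456 CPM in ApoE-/- 2 and 0.0353 CPM in ApoE-/- 3. The edgeR test of Tnfsf11 did not pass with all libraries (adjusted p = 0.459), but passed as higher without ApoE-/- 1 (adjusted p = 0.00916), where ApoE-/- had no count left. Limma-voom with sample weights also called it higher (adjusted p = 0.0219). Tnfrsf11a, encoding its receptor RANK, was at 19.0, 19.5 and 17.4 CPM in IL16-/-ApoE-/- and at 12.9, 26.7 and 39.2 CPM in ApoE-/- 1, 2 and 3 (log2 fold change -0.49, adjusted p = 0.548, edgeR, and -0.82 with adjusted p = 0.0259 without ApoE-/- 1), so that ApoE-/- 3 had the most RANK and no count of its ligand. Sost, encoding the bone formation inhibitor sclerostin, was at 234, 217 and 245 CPM in IL16-/-ApoE-/- and at 20.1, 371 and 755 CPM in ApoE-/- 1, 2 and 3 (log2 fold change -0.72, adjusted p = 0.745, edgeR, and -1.28 with adjusted p = 0.0248 without ApoE-/- 1), with the same order of the ApoE-/- libraries as Enpp1, Slc20a2 and the smooth muscle sum.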
